A study of Mus musculus with 2 samples.

Results

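Mir31, Mir489, Mir221 and Mir222 are microRNA genes known from muscle stem cells, and all 4 were found among the 2202 genes of each deposited table by looking up the table's Ensembl identifiers in the GENCODE vM21 annotation. They were counted in small RNA of the gastrocnemius, a large muscle of the calf, from male mice aged 14 days. The mice were of strain B6CASTF1/J, a first cross between C57BL/6 and CAST/EiJ, and neither a genotype other than the cross nor a treatment is given. The design has 1 group of 2 biological replicates with 1 library each, so levels are described and the libraries are compared with each other, and there is no second condition. The labels give the replicates separate sample numbers but 1 donor identifier and mention several males, so a replicate may be a pool of animals, and the spread between the libraries may be partly technical.

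Satellite cells are the stem cells of skeletal muscle and lie between the fibre and its sheath. At rest they carry low cell cycle activity, and after injury or during growth they divide as myoblasts and fuse into fibres. MicroRNAs are short RNAs that are cut from hairpin precursors and lower the translation or stability of messenger RNAs, which they find mainly through the seed, bases 2 to 8 of the mature strand. In satellite cells miR-31 is known to hold back the messenger RNA of Myf5, a transcription factor of the muscle lineage. miR-489 is known to be high in resting satellite cells and to repress Dek, a chromatin protein that favours proliferation. miR-221 and miR-222 are known to fall as myoblasts differentiate and to repress Cdkn1b, which encodes the cell cycle inhibitor p27. In bulk muscle, fewer cells of a type and less RNA per cell cannot be told apart, and the share of satellite cells in these samples was not measured.

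Since microRNAs with 1 seed share most predicted targets, the mature sequences below show which of the microRNAs have a seed in common. They come from RefSeq on GRCm38.p6, the build that mm10 names, are read 5′ to 3′, and carry the seed in capitals. All 4 genes had a mature sequence there, 7 arms in all, and the arms most often studied in muscle are shown with every other mature sequence of the table that has the same seed.
mmu-miR-31-5p: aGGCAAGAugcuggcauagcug
mmu-miR-489-3p: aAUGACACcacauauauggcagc
mmu-miR-425-5p: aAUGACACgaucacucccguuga
mmu-miR-221-3p: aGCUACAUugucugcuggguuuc
mmu-miR-222-3p: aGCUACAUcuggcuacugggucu
mmu-miR-1928: aGCUACAUugccagcuc

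miR-221-3p and miR-222-3p have the seed GCUACAU in common and are identical over their first 8 bases, while 11 of all 23 positions match. miR-1928 has that seed too. miR-489-3p has the seed AUGACAC in common with miR-425-5p, a microRNA of another locus, with 12 of 23 positions identical. The seed GGCAAGA of miR-31-5p was found in no other of 1738 mature sequences, and the same held for the other arms of Mir31, Mir489 and Mir221 in the table.

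All 4 genes lie on the minus strand. Mir221 (ENSMUSG00000065422.1, mm10 chromosome X, 19146294 to 19146388) and Mir222 (ENSMUSG00000065471.1, chromosome X, 19146893 to 19146971) are 504 bases apart and overlap no other annotated gene. Mir31 (ENSMUSG00000065408.1, chromosome 4, 88910557 to 88910662) lies in exon 3, the last exon, of the long non-coding RNA gene AL805899.1, and no other microRNA gene lies within 10 kb of it. Mir489 (ENSMUSG00000070107.1, chromosome 6, 3721897 to 3722003) lies in an intron of Calcr, which encodes the calcitonin receptor, a known surface marker of resting satellite cells. That intron is number 4 in 3 of the annotated transcripts and number 2 in the other 2, and it also holds Mir653, 511 bases from Mir489.

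Levels are given as CPM (counts-per-million), a gene's own-strand reads scaled by the own-strand reads of all microRNA genes. Replicate 1 had 2743657 such reads and replicate 2 had 2211254, so 1 read is worth 0.364 CPM in replicate 1 and 0.452 CPM in replicate 2. Reads with more than 1 mapping locus made up 44.0% of replicate 1 and 52.1% of replicate 2, and the authors' tables assign them to no gene. None of the 7 mature arms that the sequence table gives for the 4 genes has a 20-base stretch in common with the hairpin of another microRNA gene. In a search of 141767 annotated transcripts, such a stretch was found outside the 4 genes in the host RNA of Mir31 alone; the rest of the genome was not searched. Intervals are 95% Wilson intervals, and since PCR copies are not independent molecules they cover counting error. The fibre markers were present as the tissue label says, with a count for 9 of 9 and Mir206, a microRNA of skeletal muscle, at 68288 and 67909 CPM.

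Together the 4 genes took 628 reads in replicate 1, 0.0229% of counts (95% Wilson interval 0.0212 to 0.0248), and for replicate 2 the values were 646 reads and 0.0292% (0.0270 to 0.0316). Mir221 supplied 72.0% and 70.7% of those reads. The order of the levels was the same in both libraries, with Mir221 highest, then Mir222, then Mir31, and Mir489 far below.

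Mir221 was counted 452 times in replicate 1 and 457 times in replicate 2, which is 165 CPM (150 to 181) and 207 CPM (189 to 227), or 186 CPM ± 29.6 (SD, n = 2). Replicate 2 was the higher library, and the 2 counting intervals did not overlap. Mir222 was counted 103 and 105 times, at 37.5 CPM (31.0 to 45.5) in replicate 1 and 47.5 CPM (39.2 to 57.5) in replicate 2, or 42.5 CPM ± 7.03 (SD, n = 2). Replicate 2 was again the higher, with overlapping intervals. Among the 629 genes with a count in either library, Mir221 ranked 148th by mean level and Mir222 ranked 206th.

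Mir31 was counted 66 times in replicate 1 and 81 times in replicate 2, at 24.1 CPM (18.9 to 30.6) and 36.6 CPM (29.5 to 45.5). Its mean was 30.3 CPM ± 8.89 (SD, n = 2), rank 220, with replicate 2 the higher and intervals that met narrowly. Mir489 was counted 7 times in replicate 1 and 3 times in replicate 2, at 2.55 CPM (1.24 to 5.27) and 1.36 CPM (0.461 to 3.99), a mean of 1.95 CPM ± 0.845 (SD, n = 2) and rank 355. It was the sole one of the 4 with the lower value in replicate 2, and its intervals overlapped for most of their length. None of the 4 genes had a read on the opposite strand in either library, and their counts were the same with either strand counted.

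**Figure D1:**
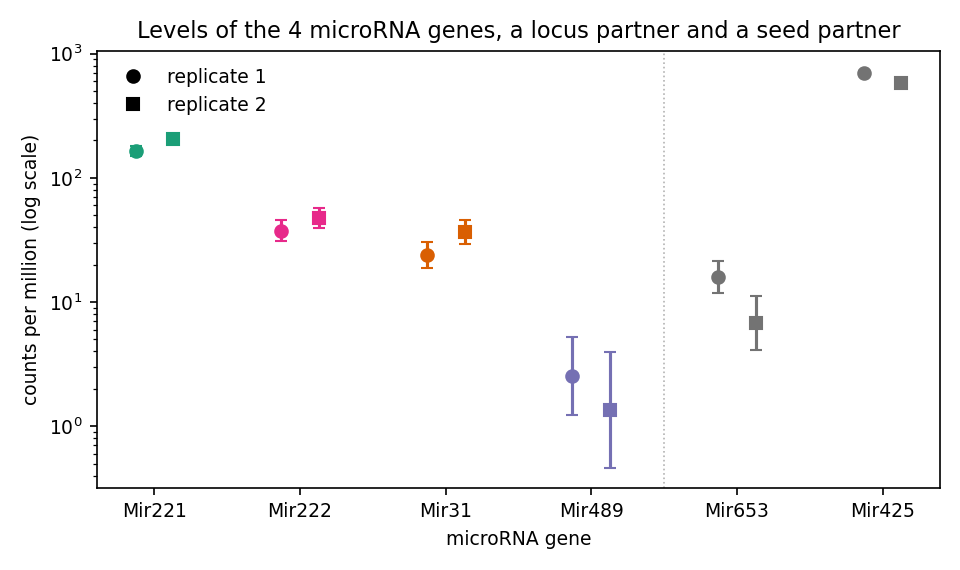
CPM (log axis) of the 4 genes in each library, left of the dotted line, and of Mir653, the neighbour of Mir489, and Mir425, whose mature strand has the seed of miR-489-3p, right of it. Circles are replicate 1, squares replicate 2 and bars 95% Wilson intervals of the counts; Mir221 stands at 165 and 207 CPM and Mir489 at 2.55 and 1.36 CPM.

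**Figure D2:**
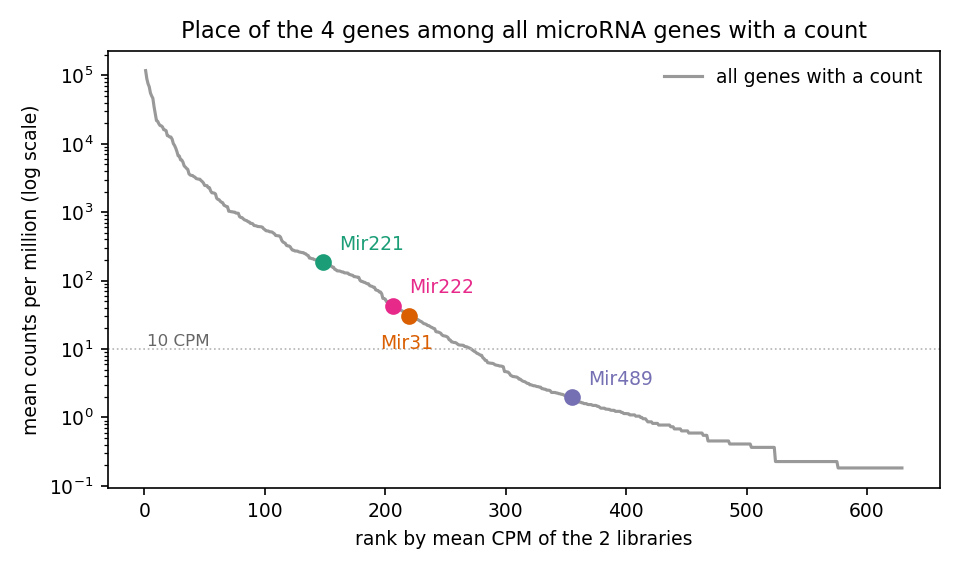
Mean CPM over the 2 libraries (log axis) against rank for the 629 microRNA genes with a count, with the 4 genes as coloured points. Mir221 stands at rank 148, Mir222 at 206, Mir31 at 220 and Mir489 at 355, the last below the dotted line at 10 CPM.

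The genes were then set against each other within each library, where no scaling between libraries enters. A small RNA read stands for 1 mature strand, so the counts were compared without division by hairpin length, which runs from 79 to 107 bases. Mir221 stood at 4.39 times Mir222 in replicate 1 (95% exact counting interval 3.54 to 5.49) and at 4.35 times in replicate 2 (3.51 to 5.43). This ratio of 4.37 ± 0.0254 (SD, n = 2) differed between the libraries by far less than its counting intervals. Per hairpin base it was 3.63.

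Mir222 stood at 1.56 times Mir31 in replicate 1 (1.13 to 2.16) and at 1.30 times in replicate 2 (0.961 to 1.75). The interval in replicate 2 includes 1, so the order of these neighbours was not resolved there at this depth, and the mean of 1.43 ± 0.187 became 1.92 per hairpin base. Mir221 stood at 6.85 and 5.64 times Mir31, and Mir31 at 9.43 times Mir489 in replicate 1 (4.33 to 24.4) and 27.0 times in replicate 2 (8.92 to 134). The steps from Mir221 to Mir222 and from Mir31 to Mir489 thus exceeded counting error in both libraries. All of these are ratios of reads, and whether different mature strands were captured equally in the libraries was not measured.

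The pair on chromosome X was set beside other neighbouring microRNA genes as a description. Of consecutive genes on 1 strand within 10 kb of each other, 76 pairs had both members at 10 CPM or more in both libraries. Their partners differed in mean level by a median of 5.29-fold, with an interquartile range of 2.25-fold to 13.6-fold, and 41 pairs were further apart than Mir221 and Mir222. The log2 ratio between the libraries differed by 0.007 between Mir221 and Mir222, against a median of 0.220 over the pairs. 1 pair, Mir15a with Mir16-1, had a smaller difference. The ratio of Mir221 to Mir222 had counting intervals of 3.54 to 5.49 in replicate 1 and 3.51 to 5.43 in replicate 2. The difference of 0.007 lies far inside that counting error, so its place among the pairs is not resolved at this depth. These pairs share genes and clusters and are not independent.

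Mir653, in the same Calcr intron as Mir489, was the more abundant of those neighbours in both libraries. It had 44 reads in replicate 1 and 15 in replicate 2, at 16.0 CPM (11.9 to 21.5) and 6.78 CPM (4.11 to 11.2). That was 6.29 times Mir489 in replicate 1 (95% exact counting interval 2.81 to 16.5) and 5.00 times in replicate 2 (1.41 to 26.9). Both microRNAs of the intron had the lower value in replicate 2, the opposite of Mir31, Mir221 and Mir222. For Mir489 the fold of replicate 2 over replicate 1 was 0.515 with a counting interval of 0.0859 to 2.26, so no difference was detectable at this depth. For Mir653 it was 0.410 (0.212 to 0.750). With all 629 counted genes tested, of which 20.5% passed, Mir653 was lower in replicate 2 (exact binomial test, adjusted p = 0.0135) and Mir489 did not pass (adjusted p = 0.738).

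Counts were also summed by seed, since the reads of 1 seed can act on the same sites. The seed AUGACAC was carried by Mir489 and Mir425, and Mir425 had 1914 reads in replicate 1 and 1283 in replicate 2, at 698 and 580 CPM. Mir489 supplied 0.364% of the reads of this pair of genes in replicate 1 (95% Wilson interval 0.177 to 0.750), while the other library had 0.233% (0.0794 to 0.684). Nearly all reads of genes with that seed therefore came from Mir425. Each hairpin gene has 1 count for its 2 arms, so part of these reads may be of the other arm.

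The seed GCUACAU was carried by Mir221 and Mir222, which summed to 202 CPM in replicate 1 and to 254 CPM in replicate 2. Mir221 supplied 81.4% of it in replicate 1 (78.0 to 84.5) and 81.3% in replicate 2 (77.9 to 84.3). Mir1928 (ENSMUSG00000087820.1) had no read, so that its level may reach 1.09 CPM in replicate 1 and 1.36 in replicate 2.

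The known target messenger RNAs were searched for the letters that pair with the seeds, in the longest annotated 3′ untranslated region of each gene, on the messenger RNA strand. Target RNAs were not measured in these libraries, so the matches are a description of sequence. The 7 letters that pair with bases 2 to 8 are TCTTGCC for miR-31-5p, GTGTCAT for miR-489-3p and ATGTAGC for miR-221-3p and miR-222-3p; the 6 letters that pair with bases 2 to 7 lack the first of these. The matched letters are in capitals below, each in a stretch of 28 bases on GRCm38, because they are the places at which these microRNAs could pair.
Myf5, 7 letters, chr10:107483894-107483921, minus strand: tttcggttgtaaatactgTCTTGCCact
Dek, 7 letters, chr13:47085355-47085382, minus strand: ttctgctttgccctcaaaGTGTCATcaa
Dek, 7 letters, chr13:47085325-47085352, minus strand: tggttgtgttaactctaaGTGTCATaga
Cdkn1b, 7 letters, chr6:134924413-134924440, plus strand: tgcctctaaaagcattggATGTAGCatt
Cdkn1b, 6 letters, chr6:134924489-134924516, plus strand: tagtttttatcttttactcTGTAGCaca

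Myf5 held 1 match of 7 letters to miR-31-5p, 117 bases into a region of 1112 bases. Over 21037 protein-coding genes, 11.2% held that match, and so did 9.71% of the 3059 regions of 0.8 to 1.25 times the length of the Myf5 region. Dek held 2 matches of 7 letters to miR-489-3p, against 9.17% of all genes and 8.86% of regions of like length with at least 1, and 1 further match of 6 letters that is not shown. The 7-letter ones are also matches to miR-425-5p, which has the same seed. Cdkn1b held 1 match of 7 letters and 3 further matches of 6 letters to miR-221-3p and miR-222-3p in a region of 3439 bases, and of the 3 the one nearest the 7-letter match is shown. The 7-letter match was found in 9.45% of all genes and 23.0% of regions of like length, and the 6-letter match in 28.2% and 62.4%. Cdkn1c, which encodes the related inhibitor p57, held 1 match of 7 letters, found in 4.92% of regions of like length. Kit, a receptor of stem cell factor, held 2, and 15.3% of regions of like length held at least 1.

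The libraries were compared over the 258 genes at 10 CPM or more in both, which includes Mir31, Mir221 and Mir222 and leaves out Mir489. A positive log2 ratio means a higher value in replicate 2, on log2(CPM + 1) after TMM scaling (trimmed mean of M-values). The test is a two-sided exact binomial test on the reads of the 2 libraries, which covers counting error and says nothing of the spread between mice. By that test 131 of the 258 genes, 50.8%, passed an adjusted p of 0.05, of which 49 were higher in replicate 2 (19.0% of those tested) and 82 lower. When libraries were scaled by their totals instead, 67 genes (26.0%) were higher and 66 (25.6%) lower.

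Mir221 was higher in replicate 2 by 0.28 on the log2 scale (exact binomial test, adjusted p = 0.00876), or 1.21-fold with a counting interval of 1.06 to 1.39. Mir31 was higher in replicate 2 by 0.54 (exact binomial test, adjusted p = 0.0408), or 1.47-fold (1.05 to 2.07). Mir222 had a log2 ratio of 0.29 and did not pass (exact binomial test, adjusted p = 0.233), at 1.22-fold (0.924 to 1.62). So 2 of the 3 tested genes passed, next to 50.8% of all genes tested. In absolute log2 ratio, 18 of the 258 genes lay beyond Mir31, 79 beyond Mir221 and 74 beyond Mir222, and the median was 0.18.

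The call for Mir31 was lost when all 629 genes with a count were tested (exact binomial test, adjusted p = 0.0884), of which 20.5% passed. With edgeR's exact test, which adds a biological coefficient of variation of 12.8% estimated from the same 2 libraries, neither Mir31 (adjusted p = 0.950) nor Mir221 (adjusted p = 0.995) passed, and 3 genes (1.16%) did so in all. That estimate takes in the differences under test, so the test has little means to find them.

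**Figure D3:**
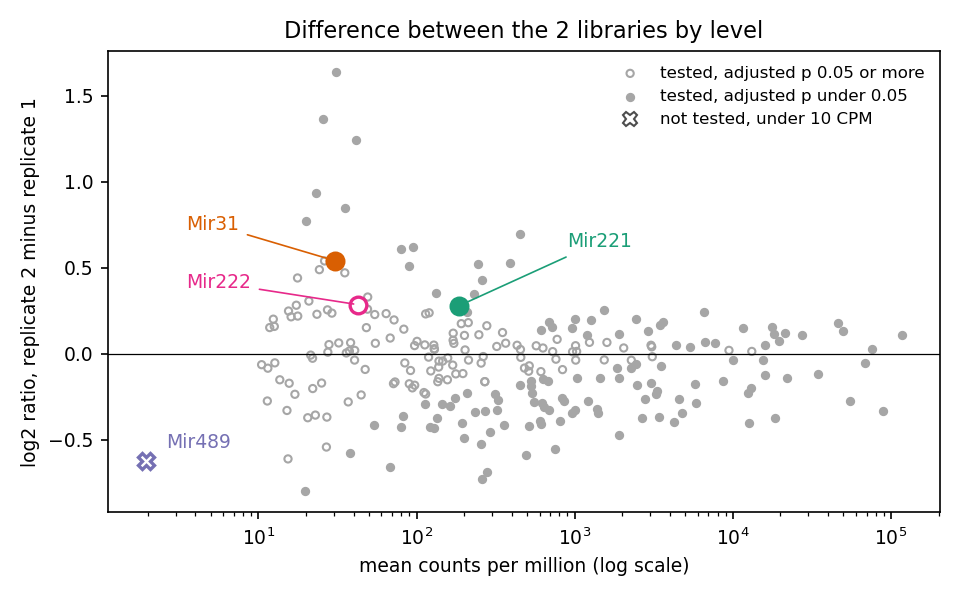
Log2 ratio of replicate 2 to replicate 1 against mean CPM (log axis) for the 258 genes tested, filled where the adjusted p of the exact binomial test was under 0.05, with the 4 genes in colour. Mir31 (0.54), Mir221 (0.28) and Mir222 (0.29) lie above 0, and Mir489 (−0.62, cross) was not tested.

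Markers of other cells also differed between the libraries, and their part in the values above was not tested. Summed over each list, the erythroid markers had 384 CPM in replicate 1 and 571 in replicate 2, with 2 of 2 tested genes higher and Mir451b at 0. The neuron markers had 944 and 1099 CPM, of which Mir128-1 made up 670 and 770 CPM and Mir128-2 222 and 195 CPM. Of the 5 neuron markers tested, 4 were higher and 1 lower. In that list 5 of 11 were at 0, all of them loci of miR-124 and miR-9. Both microRNAs have several loci. Reads with more than 1 mapping locus are in no gene count, so these 0 values do not show absence. The endothelial markers, of which Mir126a made up nearly all, had 98088 and 80434 CPM, with 1 of 1 tested lower. The fibroblast and connective tissue markers had 22811 and 20826 CPM, with 4 of 5 tested lower. Most of that sum was Mir21a, at 16497 and 15651 CPM. The other 5 genes summed to 6314 and 5175 CPM, with 1 at a higher value in replicate 2 and 4 at a lower one. miR-221 is known from vessel cells as well, and the part of such cells in the values of Mir221 was not tested. The smooth muscle sum, 36704 and 34920 CPM, was nearly all Mir143, which passed as lower, while Mir145a was at 1012 and 1018 CPM and did not pass (exact binomial test, adjusted p = 0.485). miR-31 is known from epithelia, whose 7 markers all had a count and summed to 168 and 148 CPM. Most of that sum was Mir203, at 147 and 112 CPM, the 1 marker tested and lower in replicate 2. The other 6, too low to be tested, summed to 21.5 and 36.2 CPM, with 5 at a higher value in replicate 2 and 1 at a lower one. Leukocyte markers summed to 1546 and 1549 CPM, with 0 higher and 1 lower of 5 tested, the latter Mir146, and with Mir142b at 0. Without Mir146 they summed to 977 and 1048 CPM, with 4 at a higher value in replicate 2 and 0 at a lower one. None of those 4 passed. Fibre markers summed to 69535 and 69214 CPM, nearly all of it Mir206, with 2 higher and 2 lower of 7 tested. The fibre microRNAs miR-1a and miR-133a also have several loci. Their counts may therefore be too low and the share of Mir206 too high, by an amount that was not measured.

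The 4 genes were also placed among 41 other microRNA genes reported to act in satellite cells or myoblasts. Of these, 40 had a count, and 22 had a higher mean level than Mir221, 30 than Mir222, 32 than Mir31 and 39 than Mir489. The highest were Mir378a at 117291 CPM ± 8973, Mir127 at 75510 CPM ± 2663 and Mir206 at 68099 CPM ± 267 (SD, n = 2 each), followed by Mir143 at 34797 CPM ± 1266 and Mir23a at 21316 CPM ± 1742. Mir322, which helps myoblasts leave the cell cycle, had 13175 CPM ± 388, and Mir27b, which represses the progenitor factor Pax3, at 4750 CPM ± 687. Mir195a, known to favour quiescence by repressing cell cycle genes, was at 1920 CPM ± 398. By level the 4 genes thus stood among the middle and lower members of this group. The list overlaps the marker lists above, with Mir206 also a fibre marker and Mir143 a smooth muscle marker. Which cells these levels come from was not measured.

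Mir708, another microRNA reported as high in resting satellite cells, was at 156 and 159 CPM, a mean of 158 CPM ± 1.68 (SD, n = 2). Both values lie below the 2 values of Mir221 and above those of Mir489, as well as those of Mir31 and Mir222. In replicate 1 the counting intervals of Mir708 (142 to 172 CPM) and Mir221 (150 to 181 CPM) overlapped for most of their length. The order of Mir221 and Mir708 was therefore not resolved in that library. The list gene nearest in level to Mir221 was Mir125b-2 at 163 CPM ± 20.9, that nearest to Mir222 was Mir675 at 37.0 CPM ± 4.37, and that nearest to Mir31 was Mir181a-2 at 27.1 CPM ± 4.44. Nearest to Mir489 was Mir133a-2, with 1.82 and 1.81 CPM. Of the 19 list genes below Mir221, 17 have a mature sequence in the table, and 11 of those 17 have a mature arm with a 20-base stretch in common with another hairpin. For the 4 genes described here 0 of the 7 arms searched have one. The tables drop reads with more than 1 mapping locus, so those 11 levels may be too low by an amount that was not measured.

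Between the libraries, 7 of the 35 tested list genes were higher in replicate 2 and 13 lower by the exact binomial test, 20.0% and 37.1%, next to 19.0% and 31.8% of all genes tested. Their median log2 ratio was −0.05, and that of all genes tested was −0.04. Scaled by library totals, 11 list genes were higher and 11 lower, 31.4% each, next to 26.0% and 25.6% of all genes tested. Mir195a had a log2 ratio of −0.47 and its cluster partner Mir497 one of −0.39, and both passed. Mir708 stood at −0.02 and did not pass.

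**Figure D4:**
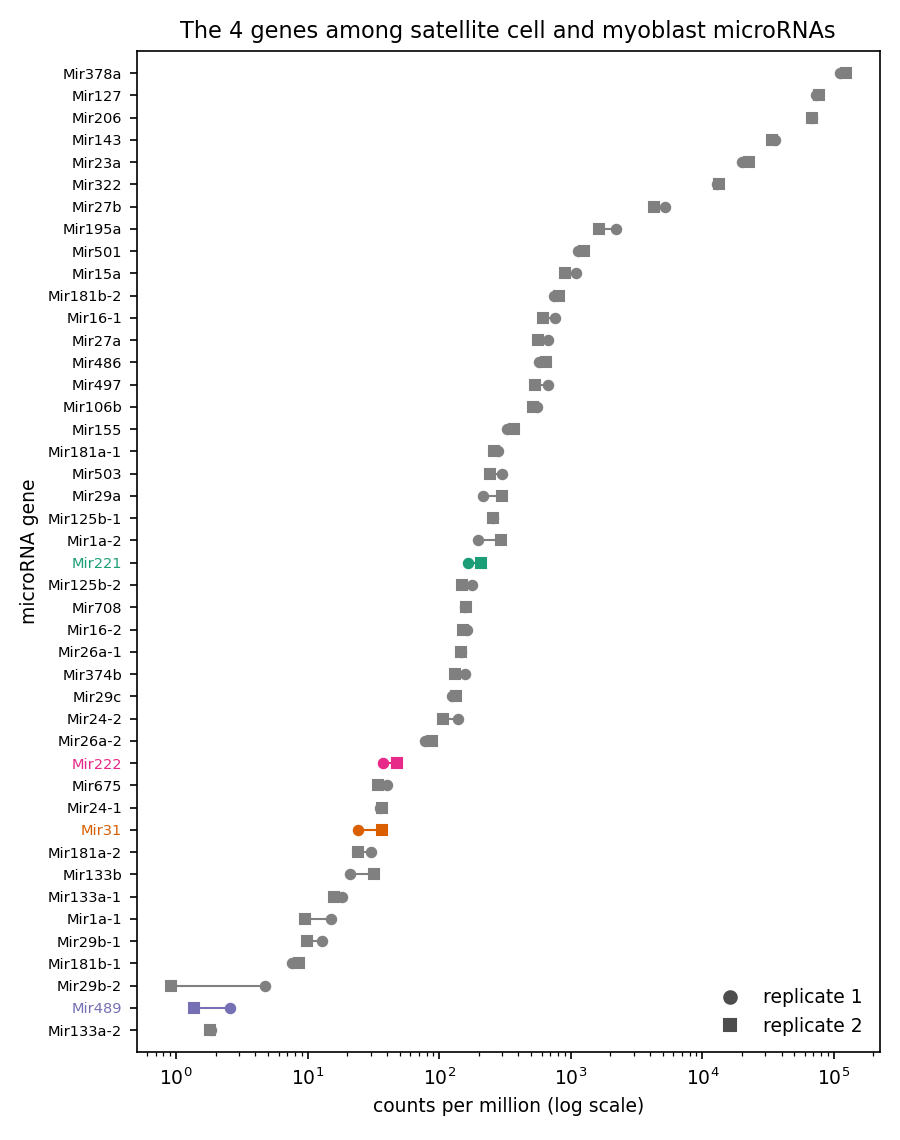
CPM (log axis) in each library for the 4 genes, in colour, and the 40 genes of the satellite cell and myoblast list with a count, in grey, ordered by mean level. Circles are replicate 1 and squares replicate 2; Mir221 stands just above Mir125b-2 and Mir489 just above Mir133a-2.

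Across all genes of the tables, those nearest in mean level were looked up for each of the 4, as likeness of level over 2 libraries of 1 tissue. Mir34a, a microRNA induced by p53, stood next above Mir221 with 452 and 464 reads, beside its 452 and 457. Next below Mir221 was Mir370 with 498 and 382 reads. Mir184 and Mir137 stood next above Mir31: Mir184 had 69 and 84 reads beside its 66 and 81, and Mir137 had 39 and 106. Likeness in mean level thus did not mean likeness in each library. Mir148b stood next above Mir222 with 131 and 92 reads, and Mir138-1 next below it with 65 and 131. Mir488 stood next above Mir489, with 1 read in replicate 1 and 8 in replicate 2, and Gm23634 next below it, with 2 and 7.

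Mir221 and Mir222 were finally placed among the genes of chromosome X. Of 142 microRNA genes there, 49 were counted, 26 of them at 10 CPM or above in each library, and by mean level Mir221 was 14th and Mir222 21st.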

How the data were processed

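MicroRNAs were sequenced from 2 gastrocnemius samples, with 1 library each. The values deposited by the authors were raw counts per microRNA gene, in columns for either strand, the gene's own strand and the opposite strand. The deposited notes and labels say that counts were made on mm10 with annotation M21, and the labels give a size range under 30 nt. The aligner, counter, trimming and their versions are not given in the sources used here. The 4 lines that name no gene (72.7% and 73.0% of reads) stayed out of library sizes and tests.

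The own-strand column was used. CPM was computed over 2202 genes, and a gene without reads was given an upper limit of 3 reads. The TMM sizes over the whole table came from edgeR 4.0.16 in R 4.3.3, and DESeq2 1.42.0 gave alternative sizes. Genes with 10 CPM or above in each library were tested by an exact binomial test with Benjamini-Hochberg adjustment at 0.05, because 1 library per replicate leaves no residual degrees of freedom for a quasi-likelihood fit. The test functions were run on simulated counts with counting error alone. That run does not show how the tests behave with added spread between libraries. Intervals came from SciPy 1.17.1.

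The members, the lists (satellite cell and myoblast; fibre, endothelial, smooth muscle, leukocyte, erythroid, epithelial, fibroblast, neuron) and the tests were chosen with earlier results of these data known. Genes named were the 4 members, microRNA genes within 10 kb, genes with a shared seed, the nearest in level, the 8 list genes highest in mean level and those nearest the members, and the leading markers; Mir708, Mir497, Mir15a, Mir16-1 and Mir1928 were named after their values were seen. The neighbouring pairs, the sums by seed and the marker sums without the leading gene were also added after seeing the data.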

Additional observations from a re-analysis of the deposited data

How the results depend on the processing

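With either strand counted, the mean levels were 39.5 CPM for Mir31, 242 CPM for Mir221 and 55.4 CPM for Mir222, since that column leaves out abundant genes with an opposite-strand partner and has a smaller total. With all reads of a library as the base of CPM they were 8.23 for Mir31, 0.531 for Mir489, 50.4 for Mir221 and 11.5 for Mir222. With 1 library left out in turn, the levels were 24.1 to 36.6 CPM for Mir31, 1.36 to 2.55 for Mir489, 165 to 207 for Mir221 and 37.5 to 47.5 for Mir222. The ratio of Mir221 to Mir222 was then 4.35 to 4.39, that of Mir222 to Mir31 1.30 to 1.56, that of Mir221 to Mir31 5.64 to 6.85, and that of Mir653 to Mir489 5.00 to 6.29. Per hairpin base the first was 3.63 and the second 1.92.

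Of the genes that passed between the libraries, 3 higher and 0 lower remained as counts under edgeR's exact test (15 genes at an unadjusted p under 0.05), and likewise 3 and 0 with a 2-fold threshold. The log2 ratio of Mir31 stayed at 0.54 where its call was lost, with every gene with a count and with edgeR's exact test, and that of Mir221 at 0.28 with edgeR's exact test. Over the alternatives tried, the adjusted p ranged from 0.0266 to 0.950 for Mir31 and from 0.00170 to 0.995 for Mir221. For the satellite cell and myoblast list, 11 genes (31.4%) were higher with total counts or DESeq2 sizes, next to 26.0% and 25.2% of all genes tested. There were 4 (12.9%) with either strand counted, next to 17.6% of all, and 0 with edgeR's exact test, which also called 0 lower. The list's median was −0.12 with either strand counted, and that of all genes −0.04. TMM over the tested genes, added after seeing the data, gave 62 genes higher and 72 lower.

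No paired analysis was possible because the design has 1 group. With 10 reads in all, Mir489 allows no statement on its difference between the libraries.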
